A study of Mus musculus with 11 samples.

Results

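The transcripts described here encode kinases reported to phosphorylate protamines, and phosphatases that act in spermatids and sperm. They were taken as the rows of the testis count files whose Ensembl gene ID maps to *Camk4*, *Srpk1*, *Srpk2*, *Ppp1cc*, *Ppp3cc*, *Ppp3r2* or *Spata33*, which gave 7 of 22259 genes. *Spata33* was found under its older name, and each gene had 1 row. RNA came from adult testes of *Ccer1*-/- mice, in which the germ cell gene *Ccer1* carries a frameshift deletion made with Cas9 on a C57BL/6J background, and from adult *Ccer1*+/+ testes, with 3 untreated samples of each genotype. The study made 3 deletion lines, picked the line with the longest deletion for its work on pathology and describes *Ccer1*+/+ mice as littermates, and neither it nor the labels name the line or the relatedness of the RNA samples. The labels call the samples replicates and the study calls them independent samples, and nothing more is said of the animals behind each.

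During spermiogenesis histones are replaced by transition proteins and then by protamines, small arginine-rich proteins that are phosphorylated soon after synthesis and lose phosphate as chromatin condenses. CaMKIV, the product of *Camk4*, is a calmodulin-dependent kinase that phosphorylates PRM2, and SRPK1, the product of *Srpk1*, is a kinase of serine-arginine dipeptides that phosphorylates PRM1 and splicing factors. *Srpk2* encodes its close relative. *Ppp1cc* encodes the gamma catalytic subunit of protein phosphatase 1 (PP1), whose testis splice form gamma2 is needed for sperm formation in mice. Calcineurin is a phosphatase switched on by calcium and calmodulin. In sperm it is built from the catalytic subunit of *Ppp3cc* and the regulatory subunit of *Ppp3r2*, and SPATA33 tethers it to the mitochondria of the midpiece, which it makes flexible.

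RefSeq promoters, taken as 300 bases that reach from upstream of a start site to just past it in GRCm38.p6, were found for 5 of the 7 genes. Those of *Ppp3r2* and *Spata33* are shown because these regulatory partners of sperm calcineurin differed in their pattern over the libraries and differ in CpG content. They are printed on the strand of the gene with every CG in capitals, from chr4:49681934-49682233 on the minus strand for *Ppp3r2* and chr8:123212608-123212907 on the plus strand for *Spata33*.
Ppp3r2: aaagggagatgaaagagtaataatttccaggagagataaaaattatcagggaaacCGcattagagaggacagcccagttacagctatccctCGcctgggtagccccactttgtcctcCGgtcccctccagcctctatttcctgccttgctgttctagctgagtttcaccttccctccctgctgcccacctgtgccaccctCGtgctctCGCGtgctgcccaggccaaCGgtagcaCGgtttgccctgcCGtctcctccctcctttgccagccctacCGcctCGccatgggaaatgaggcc
Spata33: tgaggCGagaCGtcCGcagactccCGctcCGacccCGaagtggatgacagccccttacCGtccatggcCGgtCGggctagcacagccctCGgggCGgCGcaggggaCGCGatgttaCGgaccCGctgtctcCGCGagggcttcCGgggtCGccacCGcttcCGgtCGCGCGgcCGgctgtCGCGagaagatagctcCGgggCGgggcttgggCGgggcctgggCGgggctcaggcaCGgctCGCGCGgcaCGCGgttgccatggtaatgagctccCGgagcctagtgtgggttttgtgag
The *Ppp3r2* promoter has 11 CG and 57.0% G and C, and the *Spata33* promoter has 39 CG and 71.3% G and C. Over the first listed promoter of 27025 genes the median was 7 CG, and 96.2% of promoters had no more than *Spata33*. The promoter of *Ppp1cc* has 42 CG and that of *Srpk1* 28 CG, and those listed for *Srpk2* have 7, 47 and 5 CG. A high CG content was thus not particular to *Spata33* among the members. Whether it relates to the pattern over the libraries was not tested. Searched on both strands, the letters GGGCGG of a GC box occur 4 times in the *Spata33* promoter and not in that of *Ppp3r2*, and they occur in 35.9% of all promoters. They also occur 7 times at *Ppp1cc*, once at *Srpk1* and 4 times in the *Srpk2* promoter with 47 CG. The letters GTTGCC, part of the site bound by RFX factors, occur once at *Spata33* and in 12.7% of all promoters, and this motif was picked after the sequence was seen. The letters TGACG, found in the sites of CREM and CREB, occur in none of the 5 members' promoters and in 21.0% of all promoters.

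*Camk4* (ENSMUSG00000038128) lies on chromosome 18 of GRCm38 from 32934941 to 33195767, *Srpk1* (ENSMUSG00000004865) on chromosome 17 from 28587648 to 28622528 and *Srpk2* (ENSMUSG00000062604) on chromosome 5 from 23503356 to 23684642. *Ppp1cc* (ENSMUSG00000004455) lies on chromosome 5 from 122154967 to 122175273, *Ppp3cc* (ENSMUSG00000022092) on chromosome 14 from 70217864 to 70289536, *Ppp3r2* (ENSMUSG00000028310) on chromosome 4 from 49678747 to 49681983 and *Spata33* (ENSMUSG00000048478) on chromosome 8 from 123212837 to 123222045. Each value is a count over a whole gene. Calspermin, which is read from the end of *Camk4* in spermatids, and the gamma1 and gamma2 forms of *Ppp1cc* therefore cannot be told apart from these counts. *Ppp3r2* sits inside the span of *Grin3a* on the same strand, and *Grin3a* had 1 to 7 counts in a library. An exon of *Srpk2* overlaps *Kmt2e* on the other strand, and *Kmt2e* had 532 to 949 counts. The span of *Spata33* overlaps that of *Gm20388*, a gene on the same strand that had 0 to 144 counts. An exon of *Camk4* overlaps 2310026I22Rik on the other strand, for which no count was used here. The protocol names no strand marking, so reads that fall in the shared stretches of *Srpk2* or *Camk4* may come from either strand.

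The libraries held 15970289 to 16552947 counts in *Ccer1*-/- and 16259579 to 19621550 counts in *Ccer1*+/+ testes. In CPM, the count of a gene relative to its library's total after TMM scaling, *Ccer1* itself averaged 87.8 ± 5.46 in *Ccer1*-/- testes and 526 ± 85.5 in *Ccer1*+/+ testes (SD, n = 3 each). *Ccer1*+/+ replicate 1 was closer to the *Ccer1*-/- libraries (Pearson's r of log2 CPM 0.984 to 0.990) than to *Ccer1*+/+ replicates 2 and 3 (0.965 and 0.970), so results are given with and without it. Leaving out a library because it resembles the other genotype tends to widen genotype differences. Calls made without it are therefore descriptive and are not independent support. In *Ccer1* itself *Ccer1*+/+ replicate 1 had 439 CPM, against 82.1 to 93.0 CPM in the *Ccer1*-/- libraries. Markers of germ cells, Sertoli cells and Leydig cells were present in every library, and 4 epididymal markers summed to at most 0.186 CPM in *Ccer1*-/- and 0.184 CPM in *Ccer1*+/+ libraries. Replicate 3 of each genotype was low in peritubular myoid markers, with 28.5 CPM in *Ccer1*-/- and 26.2 CPM in *Ccer1*+/+ testes, against 92.7 and 103 CPM in the other *Ccer1*-/- and 76.7 and 119 CPM in the other *Ccer1*+/+ libraries. Replicate 3 of *Ccer1*-/- and of *Ccer1*+/+ was also lowest in macrophage markers (3.27 and 3.54 CPM, against 18.3 to 19.6 CPM in the others). The same held for blood and endothelial markers (14.3 and 18.6 CPM, against 22.4 to 43.9 CPM) and Sertoli markers (79.0 and 82.3 CPM, against 107 to 150 CPM). Leydig markers ranged from 873 CPM in *Ccer1*+/+ replicate 1 to 1719 CPM in *Ccer1*+/+ replicate 2. In a whole testis, fewer cells of a type and less RNA per cell cannot be told apart.

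For no member was a difference between the genotypes larger than the spread of the libraries. All 7 passed the filter on low counts, and edgeR's quasi-likelihood test called 0 of 7 at an adjusted p under 0.05, against 0.00661% of the 15139 genes tested (*Ccer1* alone). At an unadjusted p under 0.05 it called 0 of 7, against 2.89% of all genes, and DESeq2 called 0 of 7 as well. *Ccer1*-/- and *Ccer1*+/+ values overlapped for all 7 members, while 8.34% of all genes had no overlap. The log2 fold change, *Ccer1*-/- over *Ccer1*+/+ throughout, was positive for 6 members and negative for *Spata33*, with a median of 0.13, against 0.039 over all genes tested. These signs held under the other 4 scalings tried. They did not all hold when single libraries were left out or with a curve on GC content and length removed.

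Among the kinases, *Camk4* was the least abundant member by CPM, at 65.4, 59.9 and 59.1 CPM in *Ccer1*-/- replicates 1, 2 and 3, against 60.6, 48.0 and 56.2 CPM in *Ccer1*+/+ replicates 1, 2 and 3. *Ccer1*+/+ replicate 2 was the lowest library and *Ccer1*+/+ replicate 1 lay within the *Ccer1*-/- range. The log2 fold change was 0.16 (standard error 0.14, 95% interval -0.15 to 0.47, edgeR adjusted p = 0.786). *Srpk1* had 399, 396 and 439 CPM in *Ccer1*-/- and 439, 328 and 376 CPM in *Ccer1*+/+ replicates 1, 2 and 3. Its highest library was *Ccer1*+/+ replicate 1, and its log2 fold change was 0.11 (standard error 0.13, 95% interval -0.19 to 0.41, adjusted p = 0.822 from edgeR). *Srpk2* had 364, 340 and 366 CPM in *Ccer1*-/- and 387, 263 and 279 CPM in *Ccer1*+/+ replicates 1, 2 and 3. The 3 *Ccer1*-/- values lay close together, between *Ccer1*+/+ replicate 1 above them and *Ccer1*+/+ replicates 2 and 3 below. The log2 fold change of *Srpk2* was 0.20 (standard error 0.16, 95% interval -0.16 to 0.56, adjusted p = 0.786 from edgeR), and without *Ccer1*+/+ replicate 1 it was 0.32 (standard error 0.078, adjusted p = 0.0230), which passed.

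*Ppp1cc* was the most abundant member by CPM, with 904, 923 and 1082 CPM in *Ccer1*-/- and 897, 817 and 940 CPM in *Ccer1*+/+ replicates 1, 2 and 3. Replicate 3 was the highest of each genotype, and the log2 fold change was 0.13 (standard error 0.12, 95% interval -0.14 to 0.40, edgeR adjusted p = 0.790). Per exon length, *Ppp1cc* made up 90.6% to 92.9% of the transcripts of PP1 catalytic subunits in *Ccer1*-/- and 90.9% to 93.8% in *Ccer1*+/+ libraries, with *Ppp1ca* and *Ppp1cb* as the rest.

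The subunits of sperm calcineurin had small positive log2 fold changes. *Ppp3cc* had 190, 191 and 228 CPM in *Ccer1*-/- and 208, 140 and 173 CPM in *Ccer1*+/+ replicates 1, 2 and 3. *Ccer1*+/+ replicates 2 and 3 were its lowest libraries and *Ccer1*+/+ replicate 1 was among its highest. Its log2 fold change of 0.23 was the largest of the 7 (standard error 0.16, 95% interval -0.14 to 0.60, edgeR adjusted p = 0.786), and without *Ccer1*+/+ replicate 1 it was 0.31 (standard error 0.12, adjusted p = 0.121). *Ppp3r2* had 491, 492 and 559 CPM in *Ccer1*-/- and 504, 424 and 510 CPM in *Ccer1*+/+ replicates 1, 2 and 3. Here *Ccer1*+/+ replicate 2 alone lay below the *Ccer1*-/- range, and the log2 fold change was 0.10 (standard error 0.12, 95% interval -0.18 to 0.38, edgeR adjusted p = 0.822). Per exon length, *Ppp3cc* made up 81.2% to 84.4% of calcineurin catalytic transcripts in *Ccer1*-/- and 80.4% to 81.8% in *Ccer1*+/+ libraries, with *Ppp3ca* and *Ppp3cb* as the rest. *Ppp3r2* made up 96.4% to 97.2% of the regulatory transcripts in *Ccer1*-/- and 96.6% to 98.3% in *Ccer1*+/+ libraries, with *Ppp3r1* as the rest.

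*Spata33*, the calcineurin anchor, ran the other way. It had 228, 234 and 242 CPM in *Ccer1*-/- replicates 1, 2 and 3, against 195, 275 and 295 CPM in *Ccer1*+/+ replicates 1, 2 and 3. The *Ccer1*-/- libraries varied little (SD 6.68 CPM, n = 3), and the *Ccer1*+/+ libraries stood on both sides of them (SD 52.9 CPM, n = 3). The log2 fold change was -0.12 (standard error 0.16, 95% interval -0.48 to 0.24, edgeR adjusted p = 0.832). Without *Ccer1*+/+ replicate 1 it was -0.35 (standard error 0.077, adjusted p = 0.0166), which passed.

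**Figure D1:**
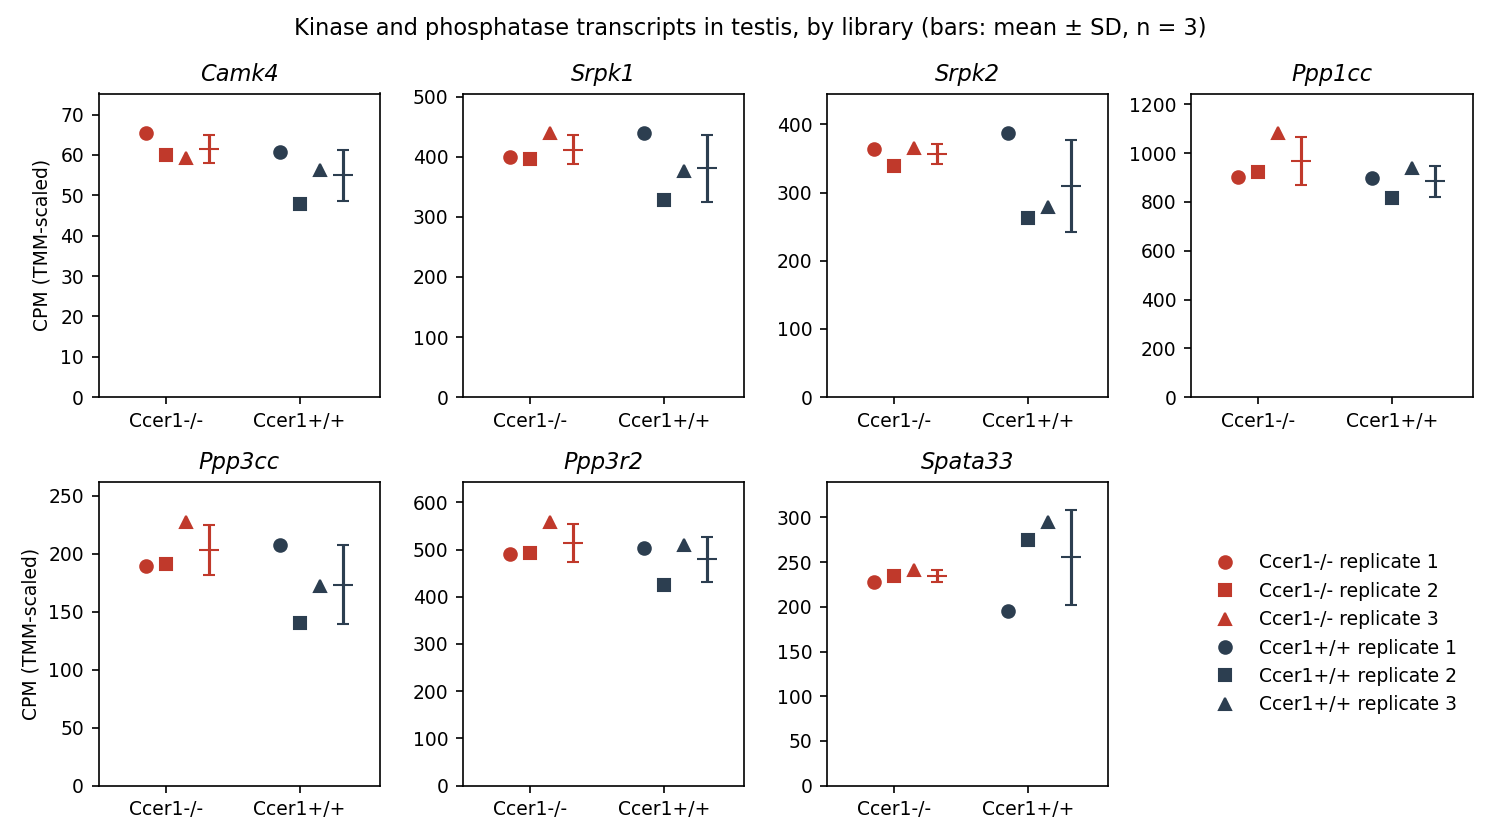
Level of each member in CPM (vertical axis, from 0) in the *Ccer1*-/- (left, red) and *Ccer1*+/+ (right, dark) libraries, with circles, squares and triangles for replicates 1, 2 and 3 and bars for the mean ± SD (n = 3). The genotypes overlap in every panel, and for *Spata33* the *Ccer1*+/+ values of 195, 275 and 295 CPM lie on both sides of the *Ccer1*-/- values of 228 to 242 CPM.

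Without *Ccer1*+/+ replicate 1, edgeR thus called 1 of 7 members higher (*Srpk2*) and 1 of 7 lower (*Spata33*), beside 9.21% of 15345 genes higher and 12.5% lower, which for 7 members is near the background. The log2 fold changes of the other members were then 0.17 for *Camk4*, 0.15 for *Srpk1*, 0.31 for *Ppp3cc*, 0.071 for *Ppp1cc* and 0.066 for *Ppp3r2*, with adjusted p of 0.309, 0.279, 0.121, 0.686 and 0.711 from edgeR. That comparison rests on *Ccer1*+/+ replicates 2 and 3 alone, and the library left out was singled out for its likeness to the *Ccer1*-/- libraries. A curve on GC content and length was also removed from each library, a setting chosen after the values were seen. The curve was fitted without regard to genotype, so it also took out any genotype difference that follows GC content or length. With it removed, 0 of 7 were called. The log2 fold change was then -0.095 for *Camk4*, 0.012 for *Srpk1*, -0.10 for *Srpk2*, 0.027 for *Ppp1cc*, 0.051 for *Ppp3cc*, -0.14 for *Ppp3r2* and 0.044 for *Spata33*, each with an adjusted p of 1.00 from edgeR.

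**Figure D2:**
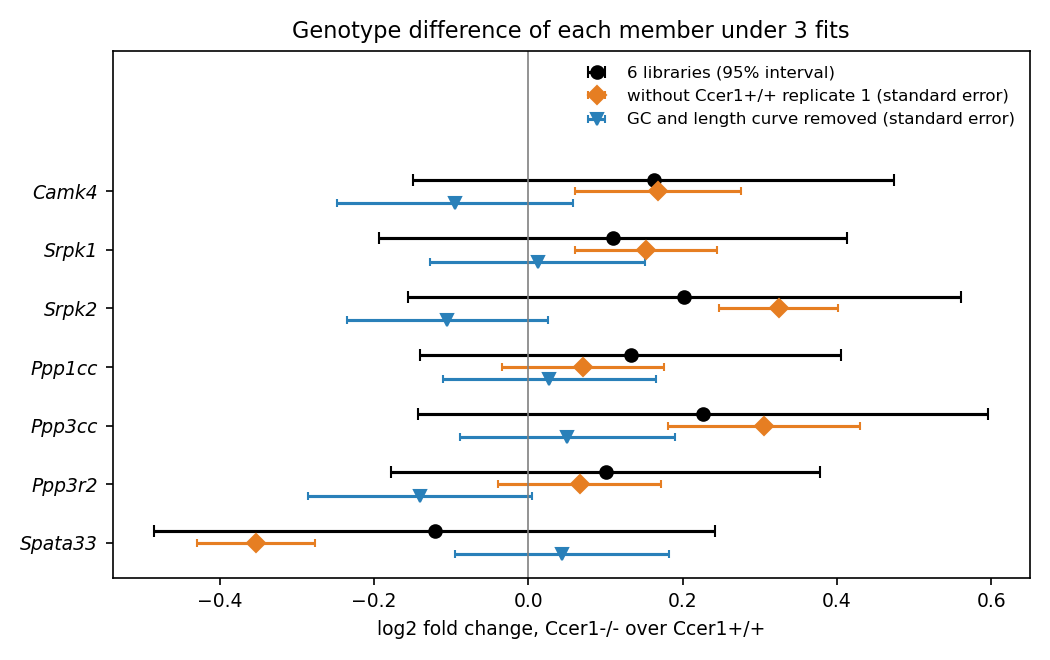
Log2 fold change of each member, *Ccer1*-/- over *Ccer1*+/+ (horizontal axis), from all 6 libraries (black, 95% interval), without *Ccer1*+/+ replicate 1 (orange, standard error) and with a curve on GC content and length removed (blue, standard error). All 7 black intervals include 0, and *Spata33* is at -0.12, -0.35 and 0.044 under the 3 fits.

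The departure of *Ccer1*+/+ replicate 1 from the average of its fellow *Ccer1*+/+ libraries is given here beside the GC content of each member's transcript. On the log2 scale of CPM it was 0.52 for *Srpk2* (40.7% GC in its longest coding transcript), 0.22 for *Camk4* (41.5%), 0.11 for *Ppp3r2* (44.3%) and 0.41 for *Ppp3cc* (46.0%). It was 0.32 for *Srpk1* (47.8%), 0.030 for *Ppp1cc* (48.7%) and -0.55 for *Spata33* (54.8%), the only member above the median GC content of 50.3%. Over 14460 genes, which are not independent replicates, GC content had a Spearman's rho of -0.70 with this difference among *Ccer1*+/+ libraries and of -0.60 with the log2 fold change between genotypes. Both quantities use the same *Ccer1*+/+ libraries, so these values are linked and are not separate observations. The part of GC content in the members' values was not tested, since the curve above also took out genotype differences that follow GC content.

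**Figure D3:**
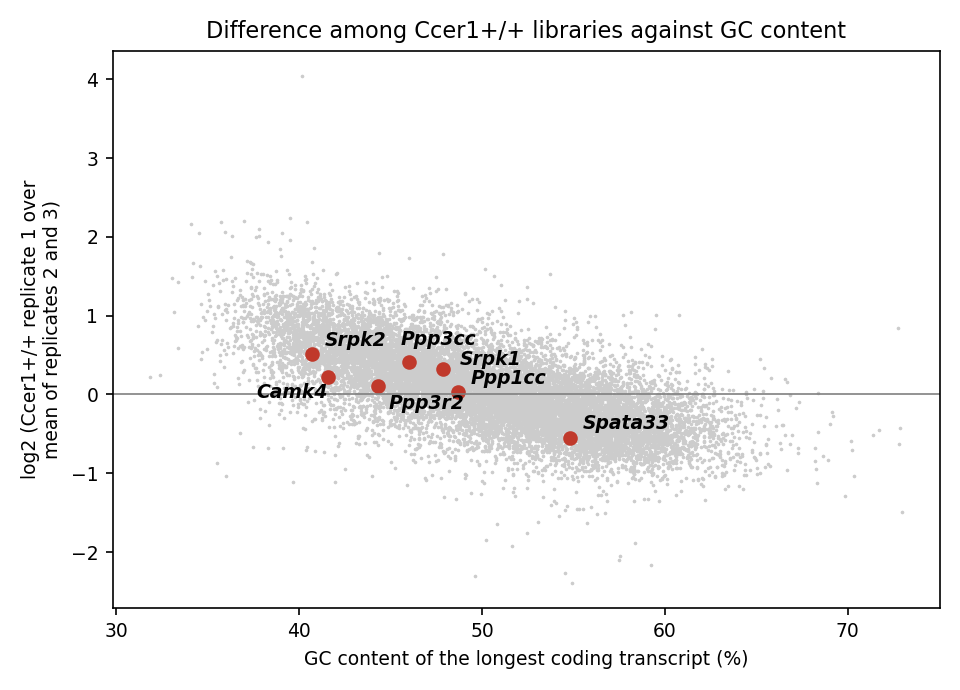
GC content of the longest coding transcript (horizontal axis, %) against the log2 of CPM in *Ccer1*+/+ replicate 1 over the average of replicates 2 and 3 of that genotype (vertical axis), for 14460 genes (grey) and the 7 members (red). *Srpk2* (40.7% GC) stands at 0.52 and *Spata33* (54.8% GC) at -0.55, at opposite ends of the members.

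Of 5 spermatocyte markers (*Sycp1*, *Sycp3*, *Hormad1*, *Mlh3* and *Piwil1*), 4 had a positive log2 fold change, with a median of 0.33, and without *Ccer1*+/+ replicate 1 edgeR called 3 higher and *Piwil1* lower, with a median of 1.04. Their summed level, without TMM scaling, was 657 to 700 CPM in *Ccer1*-/- and 721 to 739 CPM in *Ccer1*+/+ libraries, and none was at 0. The 5 round spermatid markers had a median of -0.064 and the 6 elongating spermatid markers one of -0.087. Without *Ccer1*+/+ replicate 1 these medians were -0.16 and -0.26, and edgeR called 0 round spermatid markers higher and 1 lower, and 1 elongating spermatid marker higher and 3 lower. Of all genes, 9.21% were then called higher and 12.5% lower. The part of cell composition in the members' values was not tested.

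Compared per exon length within a library (TPM, computed here from the exon lengths of an older annotation), *Spata33* stood first, at 1198 ± 20.5 TPM in *Ccer1*-/- and 1231 ± 186 TPM in *Ccer1*+/+ testes (SD, n = 3 each). Its annotated exons add up to only 518 bases, which raises this value if the true transcript is longer. *Ppp1cc* followed at 749 ± 66.1 TPM in *Ccer1*-/- and 651 ± 60.1 TPM in *Ccer1*+/+, and then *Ppp3r2* at 449 ± 28.6 TPM in *Ccer1*-/- and 400 ± 52.5 TPM in *Ccer1*+/+. *Ppp3cc* was at 183 ± 17.1 TPM in *Ccer1*-/- and 150 ± 37.8 TPM in *Ccer1*+/+, *Srpk2* at 140 ± 5.21 TPM in *Ccer1*-/- and 117 ± 33.3 TPM in *Ccer1*+/+, and *Srpk1* at 113 ± 5.20 TPM in *Ccer1*-/- and 100.1 ± 20.5 TPM in *Ccer1*+/+. The order of *Ppp3cc*, *Srpk2* and *Srpk1* was the same within each of the 6 libraries, although their ranges over the *Ccer1*+/+ libraries overlapped. *Camk4* came last, at 13.1 ± 0.849 TPM in *Ccer1*-/- and 11.1 ± 1.85 TPM in *Ccer1*+/+, over 12453 annotated exon bases. The order was the same in both genotypes.

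Ratios of counts between genes of the same library do not depend on the scaling between libraries, and 8 of them were tested by exact permutation (two-sided), where 3 libraries against 3 allow no p under 0.10. The ratios of kinase to substrate were the 2 whose genotypes did not overlap. Their denominators *Prm1* and *Prm2* were themselves lower in *Ccer1*-/- testes with no overlap in CPM, and the ratios carry that difference. How many other genes would not overlap over the same denominators was not counted, so this is not a result about the kinases. The log2 ratio of *Camk4* to *Prm2* was -5.51, -5.64 and -5.59 in *Ccer1*-/- and -5.98, -6.96 and -6.73 in *Ccer1*+/+ replicates 1, 2 and 3, a difference of 0.98 (exact p = 0.10, 0.40 adjusted over the 8 ratios). That of *Srpk1* to *Prm1* was -1.60, -1.64 and -1.25 in *Ccer1*-/- and -1.88, -2.93 and -2.67 in *Ccer1*+/+ replicates 1, 2 and 3, a difference of 1.00 (exact p = 0.10, 0.40 adjusted). In each ratio the substrate had the larger difference, with a log2 fold change of -0.84 for *Prm2* against 0.16 for *Camk4*, and of -0.90 for *Prm1* against 0.11 for *Srpk1*. Of *Prm1*, *Prm2*, *Tnp1* and *Tnp2*, 0 of 4 passed edgeR's test, with a median log2 fold change of -0.87 and 4 of 4 at an unadjusted p under 0.05, and 4 of 4 were called lower without *Ccer1*+/+ replicate 1. These 4 genes were picked by the study from the same samples, so their direction is not independent evidence. Apart from the sequencing, the study reports a genotype difference in each of these transcripts by quantitative PCR. By western blot it reports less of the encoded proteins in *Ccer1*-/- testes and less protamine in *Ccer1*-/- mature sperm. Without *Ccer1*+/+ replicate 1 the kinase to substrate differences were 1.26 for *Camk4* over *Prm2* and 1.301 for *Srpk1* over *Prm1*.

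Ratios among the phosphatase genes overlapped between the genotypes. The log2 ratio of *Ppp3cc* to *Ppp3r2* was -1.37, -1.36 and -1.29 in *Ccer1*-/- and -1.28, -1.60 and -1.56 in *Ccer1*+/+ replicates 1, 2 and 3, a difference of 0.14 (exact p = 0.40). That of *Spata33* to *Ppp3cc* was 0.27, 0.29 and 0.084 in *Ccer1*-/- and -0.090, 0.97 and 0.78 in *Ccer1*+/+ replicates 1, 2 and 3, a difference of -0.34 (exact p = 0.40). *Ccer1*+/+ replicate 1 was the lowest of the 6 libraries in this ratio and *Ccer1*+/+ replicates 2 and 3 were the highest. The ratios of *Ppp3cc*, *Ppp3r2* and *Ppp1cc* to their paralogs differed by 0.12, -0.42 and -0.22 (exact p = 0.40, 0.20 and 0.60). That of *Srpk1* to *Srpk2* differed by -0.10 (exact p = 0.30). Without *Ccer1*+/+ replicate 1 the differences were 0.24 for *Ppp3cc* over *Ppp3r2*, -0.66 for *Spata33* over *Ppp3cc*, 0.14 for *Ppp3cc*, -0.64 for *Ppp3r2* and -0.47 for *Ppp1cc* over their paralogs and -0.17 for *Srpk1* over *Srpk2*. Leaving out other libraries also moved these small differences. Without *Ccer1*+/+ replicate 3 they were 0.0094 for *Ppp1cc*, -0.13 for *Ppp3r2* and -0.044 for *Srpk1* over *Srpk2*, and without *Ccer1*+/+ replicate 2 they were 0.078 for *Ppp3cc* over *Ppp3r2*, -0.13 for *Spata33* over *Ppp3cc* and 0.079 for *Ppp3cc* over its paralogs. With *Ccer1*-/- replicate 3 left out, *Ppp3cc* over its paralogs was at 0.029. With *Ccer1*-/- replicate 1 left out, it was at 0.19 and *Srpk1* over *Srpk2* at -0.069.

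**Figure D4:**
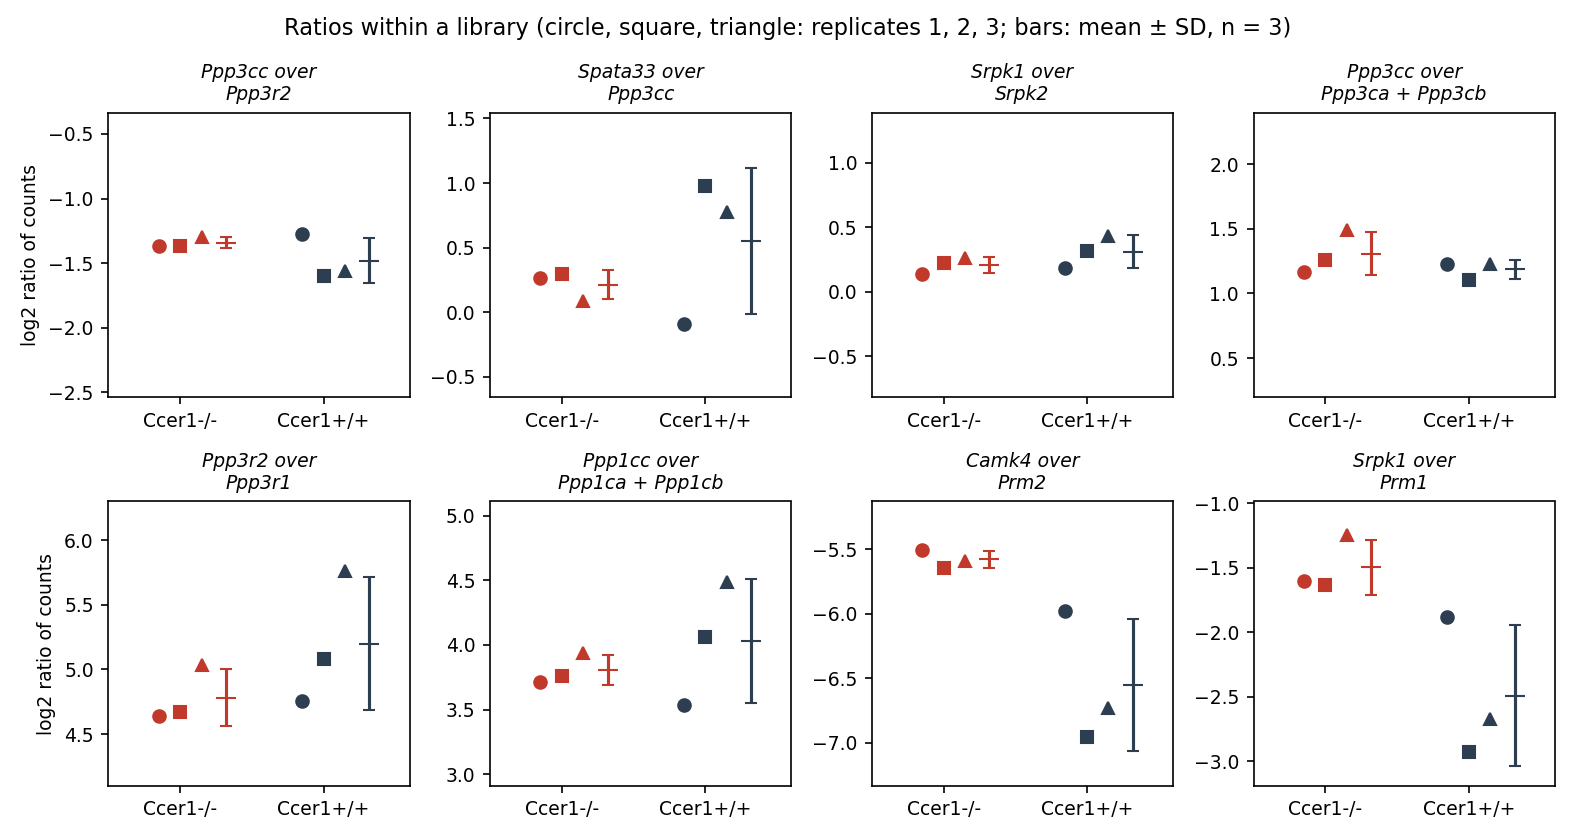
Log2 ratio of counts between genes of the same library (vertical axis, 1 panel per ratio, each spanning the same range) in *Ccer1*-/- (left, red) and *Ccer1*+/+ (right, dark) libraries, with circles, squares and triangles for replicates 1, 2 and 3 and bars for the mean ± SD (n = 3). *Camk4* over *Prm2* and *Srpk1* over *Prm1* do not overlap between the genotypes, and the other 6 ratios do. *Prm1* and *Prm2* by themselves do not overlap either.

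The other genes of these pathways gave 0 calls from edgeR in each of 6 lists. Of 12 calcineurin paralogs and regulators, 8 had a positive log2 fold change, as did 8390 of the 15139 genes tested, with a median of 0.11. The genotypes did not overlap for *Calm2* and *Rcan1*, higher in *Ccer1*-/- testes, and *Cabin1*, lower there, which were named after their values were seen. Over all genes 8.34% did not overlap. The 3 with the smallest p were *Calm3*, a calmodulin gene (-0.41, standard error 0.21), *Ppp3r1*, the widely expressed calcineurin B (0.46, standard error 0.25), and *Vdac3*, a channel of the outer mitochondrial membrane (0.33, standard error 0.18). *Calm3* had 539, 556 and 536 CPM in *Ccer1*-/- and 471, 874 and 825 CPM in *Ccer1*+/+ replicates 1, 2 and 3, so that *Ccer1*+/+ replicate 1 was again apart from replicates 2 and 3.

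Of 13 PP1 catalytic paralogs and regulators, 11 had a positive log2 fold change, as did 8390 of the 15139 genes tested. The median of the list was 0.23, against 0.039 over all genes tested. The only genes of this list without overlap were the 2 with a negative log2 fold change, *Ppp1r8* (-0.21) and *Ppp1r10* (-0.15). They encode nuclear PP1 partners and were named after their values were seen. Of all genes, 8.34% had no overlap. *Ppp1r2*, which encodes inhibitor-2 of PP1, had 184, 180 and 188 CPM in *Ccer1*-/- and 181, 102 and 120 CPM in *Ccer1*+/+ replicates 1, 2 and 3 (log2 fold change 0.45, standard error 0.20, adjusted p = 0.786 from edgeR). It was the 1 gene of this list with an unadjusted p under 0.05 from edgeR, against 2.89% of all genes. *Spz1*, a germ cell transcription factor that binds PP1 gamma2, and *Hspa4*, a chaperone, had log2 fold changes of 0.26 and 0.32 (standard errors 0.14 and 0.19).

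Of 11 tested genes of calmodulin-dependent kinases and calmodulin, 8 had a positive log2 fold change, with a median of 0.047. The 3 calmodulin genes stand in this list and in the calcineurin list. *Calm2* had 574, 563 and 642 CPM in *Ccer1*-/- and 556, 522 and 558 CPM in *Ccer1*+/+ replicates 1, 2 and 3, with no overlap. Its log2 fold change was 0.12 ± 0.11 (standard error), beside 0.32 ± 0.35 for the scarce *Camk2d*, and it was the 1 gene of 11 without overlap, against 8.34% of all genes. Of 14 tested SR protein kinases and SR proteins, 10 had a positive log2 fold change, with a median of 0.10. The splicing factor gene *Srsf1* (0.32, standard error 0.22) and the kinase genes *Clk3* and *Clk2* (-0.24 and -0.22, standard errors 0.16 and 0.15) had the smallest p.

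Of 11 other protein phosphatase genes, 6 had a positive log2 fold change, with a median of 0.0035. *Ppm1a*, a magnesium-dependent phosphatase, had 331, 327 and 335 CPM in *Ccer1*-/- and 293, 277 and 262 CPM in *Ccer1*+/+ replicates 1, 2 and 3 (log2 fold change 0.26, standard error 0.11, adjusted p = 0.786 from edgeR). It was the 1 gene of 11 whose genotypes did not overlap, against 8.34% of all genes. It was also the 1 gene of this list with an unadjusted p under 0.05 from edgeR, against 2.89% of all genes. *Ppp5c* and *Ppm1g* had log2 fold changes of -0.39 and -0.24 (standard errors 0.18 and 0.14). Of 6 further kinases reported to act on protamines or transition proteins, 4 had a positive log2 fold change, and *Prkca*, *Csnk2a1* and *Prkaca* had 0.37, 0.17 and -0.10.

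Without *Ccer1*+/+ replicate 1, edgeR called 3 of 12 genes of the calcineurin list higher and 1 lower, 6 of 13 of the PP1 list higher and 0 lower, 0 of 11 of the calmodulin kinase list higher and 1 lower, and 4 of 14 of the SR list higher and 2 lower. Of the other phosphatases it called 0 of 11 higher and 3 lower, and of the further kinases 0 of 6. These counts stand beside the same 9.21% and 12.5% of all genes. *Calm3* (-0.71, adjusted p = 0.00319), *Ppp1r2* (0.66, 0.00519), *Ppp5c* (-0.65, 0.00441) and *Ppm1g* (-0.46, 0.00465) were among those called.

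Over the 6 libraries, which share the departure of *Ccer1*+/+ replicate 1, the levels of the 6 members other than *Spata33* had pairwise Pearson's r of log2 CPM from 0.46 to 0.98, with a median of 0.81 over 15 pairs. *Spata33* had r of -0.89 to -0.073 with them, with a median of -0.63. The genes whose log2 CPM followed a member most closely, of 8751 with a symbol and a mean of at least 10 CPM, were *Katna1* and *Actrt1* for *Camk4* (r = 0.996 and 0.989), *Ing3* and *Spty2d1* for *Srpk1* (1.00 and 0.999) and *Dhx9* and *Cnot7* for *Srpk2* (1.00 and 0.998). They were *Pmpcb* and *Sec11a* for *Ppp1cc* (0.999 and 0.995), *Lrguk* and *Mpp6* for *Ppp3cc* (both 0.999), *Cyth2* and *Irak3* for *Ppp3r2* (0.998 and 0.996) and *Fam131a* and *Polr2c* for *Spata33* (0.998 and 0.997). Such likeness was common for some members, since 11.7% of those genes had an r over 0.95 with *Srpk2* and 10.4% with *Srpk1*, against 0.560% with *Camk4* and 0.423% with *Ppp1cc*.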

How the data were processed

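Polyadenylated RNA of adult testes was sequenced, and each of the 6 deposited files holds estimated counts for 22259 Ensembl genes, with no scaling between libraries and 9.95% to 10.5% of values not whole. The submitters' processing notes list Bowtie2 2.2.8, HISAT2, StringTie 1.3.1, the read trimmer fastp 0.18.0 and the build GRCm38 (mm10). What program made the counts is not stated in the sources read. After rounding, genes were tested with edgeR 4.0.16 in R 4.3.3 (filterByExpr at a minimum count of 10 and total of 15, TMM, robust quasi-likelihood F test with no covariate, Benjamini-Hochberg adjustment over all 15139 genes tested). Each p-value weighs the genotype difference against the spread between these samples, as estimated with information shared across genes. The animals behind each sample are not described, so what that spread covers is not known. Standard errors were derived from the F statistic and the fold change. Symbols were found for 20314 genes through GENCODE M1 names and RefSeq synonyms. Exon lengths and transcript GC content came from GENCODE M1 (NCBIM37), and coordinates and promoters from RefSeq GRCm38.p6. Ratios added 0.5 to each count.

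The members and lists were chosen with earlier results of these data known. Named were the members, *Ccer1*, the protamine and transition protein genes, the 3 genes of each list with the smallest p, and the 2 genes most like each member. Alternatives were other scalings, DESeq2 1.42.0, other filters, a replicate block, an adjusted p under 0.10 and each library left out. A curve on GC content and length (natural splines of 5 degrees of freedom) was added after the values were seen. The Hi-C samples were not analysed here.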

Additional observations from a re-analysis of the deposited data

How the results depend on the processing

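With 3 samples per genotype, the 95% intervals of the members' log2 fold changes ran from -0.48 at the lowest (*Spata33*) to 0.60 at the highest (*Ppp3cc*), each including 0. Of 105 member values recomputed under 15 settings, 95 kept their sign and side of the threshold. Leaving out 1 library moved the members called over 0 to 2 and the genes called over 1 to 3337, the upper values without *Ccer1*+/+ replicate 1, and the member log2 fold changes over 0.026 to 0.17 (*Camk4*), -0.034 to 0.15 (*Srpk1*), 0.054 to 0.32 (*Srpk2*), -0.016 to 0.13 (*Ppp1cc*), 0.048 to 0.31 (*Ppp3cc*), -0.030 to 0.10 (*Ppp3r2*) and -0.35 to -0.055 (*Spata33*). *Srpk1* turned negative without *Ccer1*+/+ replicate 2 (-0.034), *Ppp1cc* without *Ccer1*-/- replicate 3 (-0.016), and *Ppp3r2* without *Ccer1*-/- replicate 3 (-0.026) or *Ccer1*+/+ replicate 2 (-0.030). The log2 ratio of *Ppp1cc* to its paralogs differed by -0.47 to 0.0094 with 1 library left out, turning positive without *Ccer1*+/+ replicate 3. The cause was not tested. With the curve on GC content and length removed, chosen after the values were seen, *Camk4* (-0.095), *Srpk2* (-0.10), *Ppp3r2* (-0.14) and *Spata33* (0.044) changed sign and 2 genes were called. The DESeq2 test called 5 genes. Over the lists, the genes called ranged from 0 to 4 (calcineurin), 0 to 6 (PP1), 0 to 1 (calmodulin kinases), 0 to 6 (SR), 0 to 3 (other phosphatases) and 0 to 4 (protamine and transition protein genes) with 1 library left out. Same-numbered libraries deviated together with r of 0.064, 0.35 and 0.47 for replicates 1, 2 and 3, against -0.45 to 0.27 for libraries of unlike number. The deviations were taken from each genotype's own mean, so these r values depend on one another. Replicates 2 and 3 may share an effect between the genotypes, but the values are not separate evidence for each. The main test used no pairing because the labels state none. With a replicate block 0 members and 1 gene were called, and *Ppp3cc* had a log2 fold change of 0.24.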
